A study of Oryza sativa with 23 samples.

Results

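The difference between the leaf and root responses to excess iron was measured in rice plants (Oryza sativa) of the variety Hacha, from all 11 Hacha libraries of the 23 in the study. The value for each gene is the log2 fold change of leaf (excess iron over control) minus the log2 fold change of root, called the organ difference here. A positive value means a response that is higher in leaf, through a rise in leaf, a fall in root or both. Hacha is a line from a cross of CRM 53 with IR 64, and the other variety, Lachit, from a cross of CRM 13-3241 with Kalinga 2. All plants were 11 days old and supplied RNA from whole roots or from L2 leaves. Controls of both varieties stood in full nutrient solution with 50 µM iron as an EDTA chelate at pH 6.2. For the last 2 days the excess-iron plants had 15 mM iron sulfate added to that solution, at pH 5.2. Iron, sulfate and acidity therefore changed together, and their parts in a response cannot be told apart. In Hacha there were 3 libraries each of control leaf, excess-iron leaf and control root, and 2 of excess-iron root. The design text of the study speaks of triplicates, and no further excess-iron root library of Hacha was analysed here. Each of the 4 Lachit groups had 3. The labels do not say whether replicates were separate plants, so the p-values here rest on a spread between samples that may be technical.

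Iron is needed by both organs, as a cofactor of respiration in all cells and of photosynthesis in leaves. In flooded acid soils it is present as soluble ferrous iron, which rice roots take up and pass through the xylem to the leaves. Free ferrous iron generates reactive oxygen species, and plants store or wall off the surplus in ferritin, in vacuoles and as plaque on the root surface. Root and shoot thus meet the same supply at different points, the root directly and the leaf through transport. Which functions responded in each organ could not be assigned, since the gene identifiers of the files were paired with no names in the sources used here. Genes are described by direction, organ of expression, level and identifier, and the tissue labels could not be checked against named leaf or root markers.

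The Hacha libraries held 16659578 to 33386824 estimated counts. Correlations of log2 CPM (counts scaled to library size) between replicates ran from 0.951 to 0.984 across genes. Leaf replicates varied more than root replicates, with a biological coefficient of variation of 35.95% in leaf and 16.06% in root when each organ was fitted alone. Control leaf replicate 1 stood somewhat apart, with correlations of 0.953 and 0.951 to the other two, which had 0.982 with each other. Excess-iron leaf replicate 1 did so too, at 0.959 and 0.953 against 0.970, and its chi-square per gene of 119 and 172 against the other two was the largest of all pairs.

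The leaf and root responses differed in a large part of the transcriptome. Of 27680 genes tested, 12862 (46.5%) had an organ difference at an adjusted p below 0.05 by edgeR's quasi-likelihood F test. The response was higher in leaf for 6610 genes (23.9%) and lower in leaf for 6252 (22.6%). Genes with a higher response in leaf had a median log2 fold change of 1.18 in leaf and -0.68 in root. Those with a lower response in leaf had medians of -1.52 in leaf and 0.35 in root, against -0.03 and -0.05 over all genes tested. Of the calls, 51.39% were higher in leaf, but this balance was not stable. It was 64.18% when limma was run on log2(TPM + 1), 45.56% with no filter on low counts, and between 43.71 and 47.7% when any 1 of the 6 leaf libraries was left out. Without excess-iron root replicate 2 it was 49.7%. The count was 9807 without excess-iron root replicate 1 and 13615 without excess-iron leaf replicate 1, the extremes when single libraries were left out.

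In leaf 18093 genes changed (65.4%), of which 8732 rose (31.5%) and 9361 fell (33.8%). In root 13521 changed (48.8%), of which 6214 rose (22.4%) and 7307 fell (26.4%). These counts do not order the organs by breadth of response. They come from a fit in which both organs share the estimate of spread, and separate fits called 15158 genes in leaf and 17484 in root. Among the 8980 genes called in both organs, 2218 moved in opposite directions, and the organ difference itself passed the test for each of these 2218. Called responses of opposite sign nearly ensure such a pass, so it adds no support. Of the 9113 genes called in leaf and not in root, 63.83% had a significant organ difference. Of the 4541 called in root and not in leaf, 56.51% did. For the remainder, a call in one organ alone was not matched by a tested difference between the organs.

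**Figure D1:**
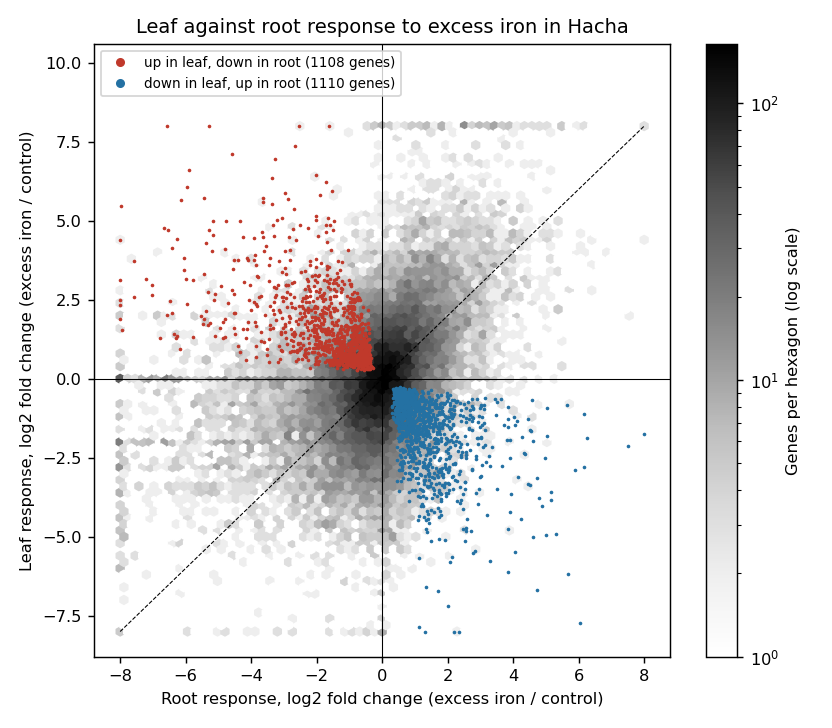
Leaf response (vertical axis) against root response (horizontal axis) of every gene tested in Hacha, as log2 fold changes of excess iron over control, with values outside the range from -8 to 8 drawn at its ends. Grey hexagons count all genes and coloured points are the 1108 and 1110 genes called in both organs in opposite directions.

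Opposite responses were found in both directions. In all, 1108 genes rose in leaf and fell in root, with medians of 1.18 in leaf and -1.26 in root on the log2 scale. Another 1110 genes fell in leaf and rose in root, with medians of -1.34 and 1.11. The change was at least 2-fold in both organs for 479 of the first class and 493 of the second. Both classes were sensitive to the pair of excess-iron root libraries. Without replicate 1 of that group they held 716 and 676 genes, and without replicate 2 they held 655 and 690. Their ratio depended on scaling and on the leaf libraries, with 1428 and 725 genes under library totals, 1624 and 620 by limma on log2(TPM + 1), and 1070 and 1510 without excess-iron leaf replicate 1.

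The 1108 genes that rose in leaf and fell in root held 2.91, 2.48 and 2.72% of the counts of the control leaf libraries and 7.64, 6.13 and 6.98% under excess iron. In root they held 12.3, 13.0 and 13.8% in control and 4.90 and 4.41% under excess iron. These shares did not overlap between treatments in either organ. The class was thus mostly a root class in control plants and took a larger share in leaf than in root under excess iron. The 1110 genes that fell in leaf and rose in root went from 7.51% ± 0.362 (SD, n = 3) to 2.31% ± 0.34 (n = 3) of leaf counts, and from 2.34% ± 0.143 (n = 3) to 4.56% ± 0.0427 (n = 2) of root counts. The Hacha shares describe the genes that these same libraries selected, and no test is attached to them. In whole organs, fewer cells of a type and less RNA per cell cannot be told apart.

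Responses in leaf alone came next. A gene was placed here if its organ difference and its leaf response passed the test and its root response did not. There were 2539 such genes that rose in leaf, with medians of 1.86 in leaf and -0.04 in root, and 3278 that fell, with medians of -1.96 and 0.06. A missed call in root is not an absence of change. The 95% interval of the root response lay within a 2-fold change either way for 1258 of the 2539 and for 1787 of the 3278. Root expression was under 1 CPM in both treatments for 10.08% of the rising and 17.63% of the falling genes, compared with 16.63% of all genes tested.

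The 3278 genes that fell in leaf alone made up a large part of the leaf transcriptome. They held 38.44, 46.47 and 44.76% of the counts in the control leaf libraries and 4.08, 6.53 and 6.83% under excess iron. Every control leaf library lay far above every excess-iron one. In root they held 6.71% ± 0.0818 (SD, n = 3) in control and 5.89% ± 0.478 (n = 2) under excess iron. Of the 20 genes with the largest shares of control leaf counts, 17 belonged to this class, 2 fell in both organs with the larger fall in leaf, and 1 fell in leaf and rose in root. Of the 100 most abundant, 72 fell in leaf alone, against 3278 of all 27680 genes tested. This ranking used the control libraries that also enter the leaf response, so it is a description. The 2539 genes that rose in leaf alone went from 5.59% ± 1.21 to 21.85% ± 2.17 (n = 3 each) of leaf counts. In root they were already abundant, at 16.68% ± 0.111 (n = 3) in control and 14.75% ± 0.555 (n = 2) under excess iron.

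Responses in root alone were found for 902 genes that rose, with medians of 1.31 in root and -0.11 in leaf, and for 1664 that fell, with medians of -2.29 and 0.13. The 95% interval of the leaf response lay within a 2-fold change for 593 and 755 of them. Of the genes that fell in root alone, 39.78% were under 1 CPM in leaf in both treatments, against 19.01% of all genes tested. The 1664 falling genes held 8.11, 8.72 and 9.00% of control root counts and 2.70 and 2.41% under excess iron, without overlap. The 902 rising genes went from 2.30% ± 0.155 (n = 3) to 5.64% ± 0.0289 (n = 2). The order of these classes by size depended on the estimate of spread and the unit. With a separate spread for each group (limma voom), genes falling in root alone numbered 2505 and those rising 1331, against 1904 rising and 2825 falling in leaf alone. By limma on log2(TPM + 1), genes falling in root alone were the largest of these 4 classes, at 4099 against 3116 falling and 2969 rising in leaf alone. With library totals as the only scaling, which moved the median root response of all genes from -0.05 to -0.30, genes rising in root alone numbered 597 and those falling in leaf and rising in root 725.

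Of the 20 most abundant genes of control root, 8 rose in leaf and fell in root, 3 rose in leaf alone, 2 fell in both with the larger fall in root, 1 rose in both with the larger rise in leaf, and 6 had no called organ difference. Of the 100 most abundant, 28 rose in leaf and fell in root, 19 rose in leaf alone and 32 had no called organ difference. Over all 27680 genes tested, 1108 rose in leaf and fell in root, 2539 rose in leaf alone, and 46.5% had a called organ difference. Whether abundant genes were called more readily was not tested for either organ.

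**Figure D2:**
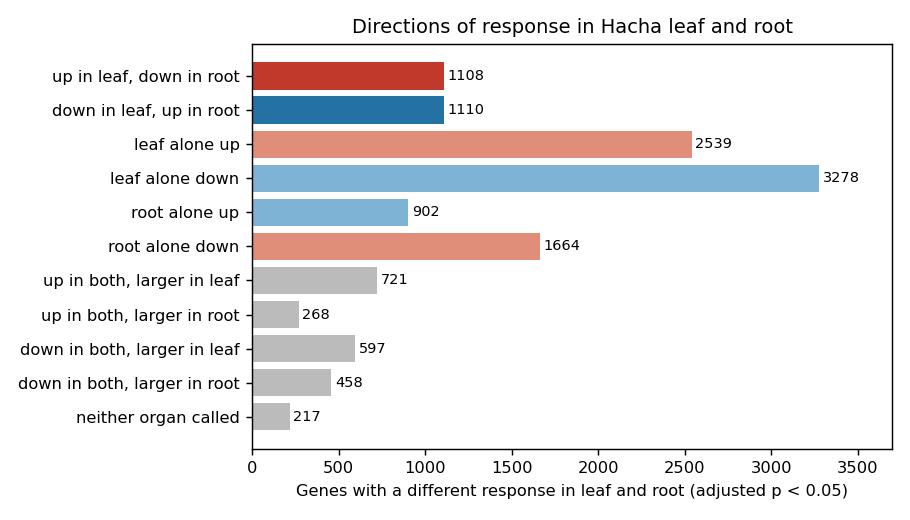
Number of Hacha genes in each direction class among the 12862 with an organ difference at an adjusted p below 0.05. Red and pale red bars are responses higher in leaf, blue and pale blue bars responses lower in leaf, and grey bars the genes that moved the same way in both organs or were called in neither. The longest bar is the 3278 genes that fell in leaf alone.

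Same-direction responses of unequal size were a smaller group. A total of 721 genes rose in both organs with the larger rise in leaf, at medians of 2.96 in leaf and 1.24 in root, and 597 fell in both with the larger fall in leaf. The larger change was in root for 268 genes that rose in both organs and for 458 that fell in both. A further 217 genes had an organ difference while neither organ was called. The 1318 genes with the larger change in leaf depended on single libraries. They numbered 405 and 402 without excess-iron root replicates 1 and 2, 794, 717 and 766 without control root replicates 1, 2 and 3, and 1983 without control leaf replicate 1.

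Genes with a preference for one organ in control plants mostly had, where called, the lower response in that organ. Organ preference was taken from the control plants of Lachit, which share no library with the Hacha comparison, at an adjusted p below 0.05 and at least a 2-fold difference between leaf and root. This gave 6324 leaf-preferring genes, 7028 root-preferring genes and 11797 with no preference, while 2531 were not tested. Of the leaf-preferring genes, 3170 (50.13%) had a lower response in leaf than in root and 467 (7.385%) a higher one. Of the root-preferring genes, 3086 (43.91%) had a higher response in leaf and 443 (6.303%) a lower one. Genes with no preference were more even, with 23.49% higher and 19.67% lower.

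By these calls, the larger part of each pattern was a fall in the organ of preference. Genes with a preference are by definition lower in the other organ, where a change is less readily called. Of the genes that fell in root alone, 39.78% were under 1 CPM in leaf, against 19.01% of all genes tested. For those that fell in leaf alone, 17.63% were under 1 CPM in root, against 16.63% of all. How far low levels shaped the shares below was not tested. The median response of leaf-preferring genes was -1.22 in leaf and 0.23 in root. Of them 59.54% fell in leaf, against 30.41% of genes with no preference, while 28.42% rose in root, close to the 24.87% of genes with no preference. For root-preferring genes the median was 0.28 in leaf and -1.02 in root. Of them 50.95% fell in root, against 21.59% of genes with no preference, while 34.97% rose in leaf, no more than the 36.68% of genes with no preference. The median leaf-minus-root difference of leaf-preferring genes in Hacha, on the log2(CPM + 0.5) scale, went from 1.98 in control to 0.98 under excess iron. That of root-preferring genes went from -1.94 to -0.59. The preference itself was mostly shared by the varieties. Every Hacha control leaf library lay above every control root library for 86.91% of the leaf-preferring genes, against 35.27% of all genes tested. The reverse held for 91.29% of the root-preferring genes, against 42.58% of all genes tested.

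**Figure D3:**
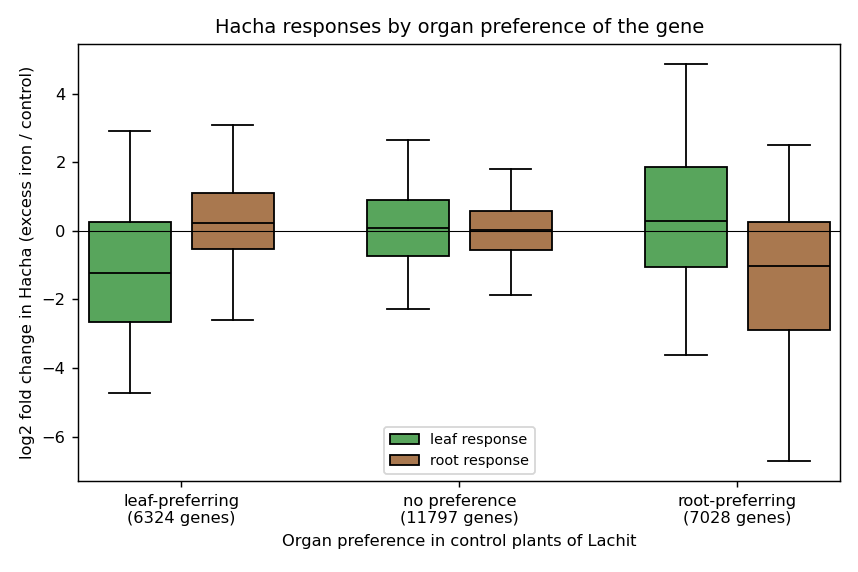
Hacha responses in leaf (green) and root (brown) as log2 fold changes, for genes grouped by their organ preference in Lachit control plants. Boxes span the quartiles with the median as a line, and whiskers run from the 5th to the 95th percentile. Leaf-preferring genes have a leaf median of -1.22 and root-preferring genes a root median of -1.02.

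A small number of genes exchanged the organ of higher expression. In 130 genes every control leaf library was over 2-fold above every control root library, and every root library over 2-fold above every leaf library under excess iron. Of these, 91 fell in leaf and rose in root. In 244 genes the exchange ran from root to leaf, of which 109 rose in leaf and fell in root, 65 rose in leaf alone and 50 fell in root alone. By the chromosome number in the identifier, the share of tested genes with a higher response in leaf ran from 20.89% on chromosome 10 to 25.78% on chromosome 3. The share with a lower response ran from 21.81% on chromosome 6 to 24.05% on chromosome 3.

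Genes described singly had a called organ difference, a group mean of 10 CPM or more, and no overlap between treatments in any called organ. Of these, OS12G0555100 on chromosome 12 had the highest organ difference. Its CPM in control leaf was 0.109, 0.0755 and 0.0511, and under excess iron 75.2, 60.5 and 2.83. In root it was at 5.88, 5.58 and 5.64 CPM in control and at 0.123 and 0.162 under excess iron. Neither organ's libraries overlapped between treatments, although excess-iron leaf replicate 3 was far lower than the other two. By summed counts it was 606-fold higher in leaf and 40.9-fold lower in root under excess iron, from 5 reads in all of control leaf and 6 in all of excess-iron root. The organ difference was 14.42 ± 1.93 (SE) on the log2 scale, with an adjusted p of 0.000315 by edgeR.

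OS10G0515900 on chromosome 10 rose in leaf alone. It had 1 read in control leaf over 3 libraries and 809, 925 and 281 reads under excess iron, or 40.4, 42.6 and 14.5 CPM. Root held 3 reads in control and 0 under excess iron, too few to give a fold there. Leaf expression was 2125-fold higher, with a 95% counting interval of 381 to 83970. The adjusted p of its organ difference was 0.00587 by edgeR and rose to 0.0506 without control root replicate 3, which held 2 of the 3 root reads.

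OS04G0578600 on chromosome 4 went the opposite way. In control leaf it stood at 106, 82.6 and 104 CPM, and no read was found in any of the 3 excess-iron leaf libraries. With a floor of 3 counts over the group, leaf expression was at least 1949-fold lower. In root it was at 0.0597, 0.123 and 0.106 CPM in control and 0.490 and 0.538 under excess iron, a 5.36-fold rise at a level of 22 reads against 9. The groups were separate in both organs, and the adjusted p of the organ difference was 1.129e-05 by edgeR.

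OS07G0142100 on chromosome 7 was the most abundant of the genes described singly and fell in leaf alone. It stood at 3132, 3809 and 4303 CPM in control leaf and had 10, 13 and 97 reads under excess iron, with at most 5.00 CPM, a 1919-fold lower level. In root it was at 2.42, 2.45 and 5.15 CPM in control and 14.3 and 6.62 under excess iron. The root libraries did not overlap, but the root response missed the test, with a log2 fold change of 1.66 (95% interval -0.15 to 3.46) and an adjusted p of 0.115 by edgeR. The organ difference was -12.51 ± 1.29 (SE), with an adjusted p of 9.307e-05.

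In root alone, OS01G0556650 on chromosome 1 had the largest rise by organ difference. It had 2, 0 and 4 reads in control root and 467 and 381 under excess iron, or 19.1 and 20.5 CPM, a 310-fold higher level. In leaf it was at 21.9, 10.2 and 9.56 CPM in control and 1.55, 14.2 and 2.01 under excess iron, which overlapped. OS02G0218750 on chromosome 2 had the largest organ difference among genes falling in root alone. It was at 23.6, 20.8 and 30.1 CPM in control root, and no read was found in either excess-iron root library, which makes it at least 352-fold lower. Leaf held only 8 reads of it in control and 7 under excess iron. Adjusted p-values of the organ differences were 0.000645 and 0.00125 by edgeR.

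**Figure D4:**
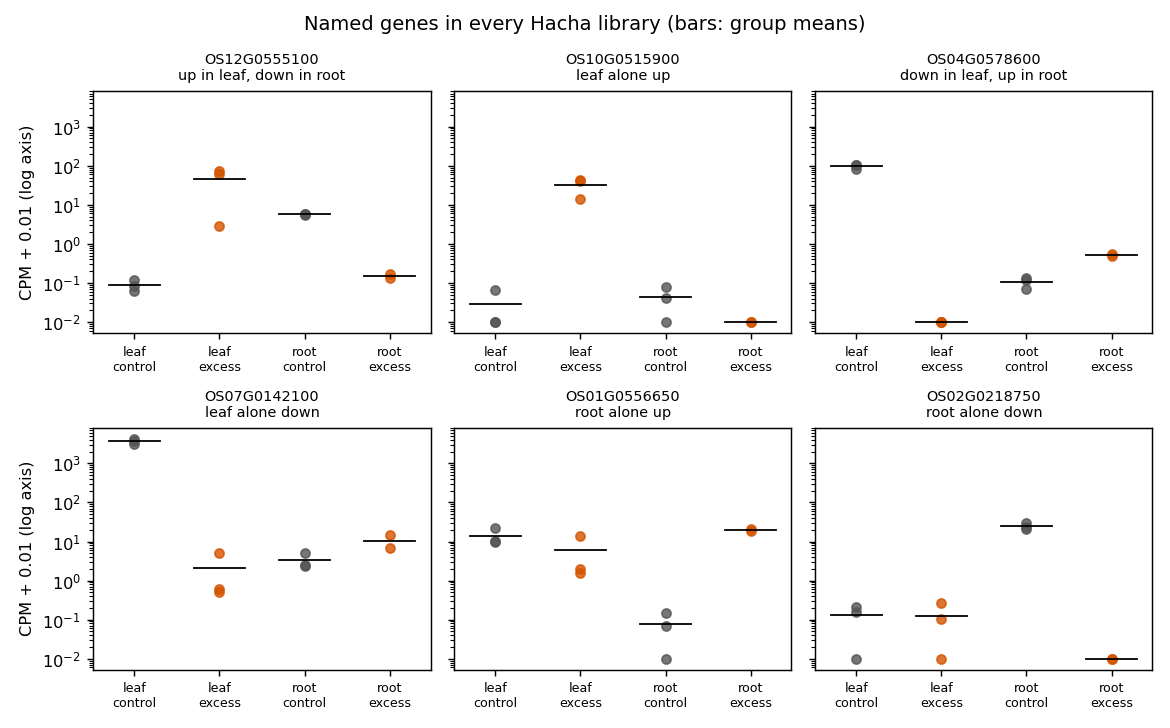
CPM of the 6 genes described singly in each of the 11 Hacha libraries, on a log axis after a small offset so that libraries with no read sit at the bottom. Grey points are control, orange points excess iron, and bars are group means. OS07G0142100 lies between 3132 and 4303 CPM in control leaf and at 5.00 CPM or below in leaf under excess iron.

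The organ differences of Hacha were compared with those of Lachit, which came from other libraries. In Lachit 8996 of 27280 genes tested had an organ difference of its own (33.0%). Of the Hacha genes with a higher response in leaf that were tested in Lachit, 82.15% had the same sign there, and 40.66% were also called in that direction. For a lower response in leaf these shares were 90.43% and 49.2%, while over all genes tested they were 74.01% and 29.1%. Genes that were called in Lachit in the opposite direction made up 4.013% and 0.6636%, against 4.441% of all genes, so the first of these was near the background. Genes that rose in leaf alone shared the sign in 77.68%. Of them 28.37% were also called in that direction and 5.366% in the opposite one, near the background. Genes that rose in both organs with the larger rise in leaf shared it in 57.88%. Of these, 72 were called in Lachit in the same direction and 76 in the opposite one. The other classes called in 1 organ alone shared the sign in 89.38 to 90.69%. The other same-direction classes did so in 80.68 to 93.61%. The sign was shared by 94.64% of the genes with opposite responses in Hacha, and 24.34% of them fell into the same class in Lachit. This was 18.36% for genes that rose in leaf and fell in root, and 30.47% for the reverse. Over all genes tested 53.45% kept their class, a share that includes genes not called in either variety.

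The shares of the Hacha classes were also measured in Lachit, whose libraries did not choose the genes. The genes that fell in leaf alone went from 40.43% ± 1.49 to 14.49% ± 5.79 of Lachit leaf counts (n = 3 each). Those that rose in leaf and fell in root went from 3.73% ± 0.291 to 6.56% ± 0.354 in leaf and from 13.64% ± 0.498 to 7.64% ± 0.387 in root (n = 3 each). Over the 6 classes and both organs, 11 of 12 shares were without overlap between the treatments in Lachit, with p = 0.1 in a two-sided exact permutation test, the smallest that 3 against 3 allows, so none could pass 0.05. The exception was the share of genes that fell in leaf alone as measured in root (exact permutation p = 0.2). In 3 of these 11, the share was that of an organ in which the Hacha genes had no called response. Genes of the class that rose in root alone went from 3.62% ± 0.0433 to 5.10% ± 1.1 of leaf counts. Those that fell in root alone went from 2.93% ± 0.138 to 3.64% ± 0.555 of leaf counts. Those that rose in leaf alone went from 16.02% ± 0.293 to 18.03% ± 0.674 of root counts (n = 3 each). Genes with no called organ difference in Hacha also took larger shares, from 26.28% to 41.22% in Lachit leaf and from 38.86% to 43.63% in root. A larger share was therefore not by itself a rise relative to the typical gene. The Lachit shares of these uncalled genes did not overlap between treatments either. They ran from 25.57 to 27.01% in control leaf and from 36.67 to 45.66% under excess iron. In root they ran from 38.38 to 39.57% and from 43.14 to 44.28%. A lack of overlap was thus not particular to the 6 classes. Median Lachit leaf responses of the root-alone classes were -0.06 (rising) and -0.07 (falling) on the log2 scale. The median Lachit root response of genes that rose in leaf alone was 0.17.

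**Figure D5:**
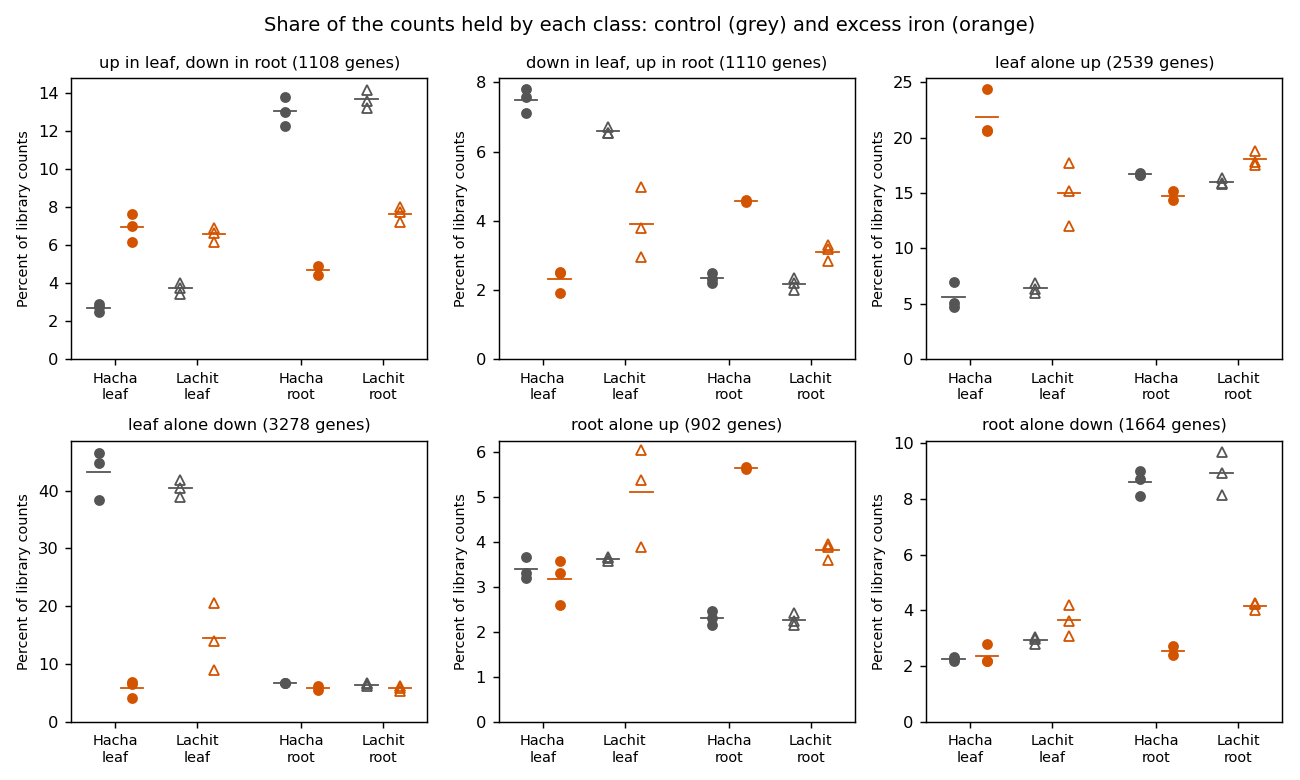
Percent of library counts held by each of 6 direction classes in control (grey) and excess iron (orange), with 1 point per library, filled circles for Hacha, open triangles for Lachit, and bars for group means. The classes were chosen on the Hacha libraries. In the class that fell in leaf alone, the control leaf libraries of Hacha lie between 38.44 and 46.47% and those under excess iron at 6.83% or below.

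The remaining genes described for Hacha varied in how they behaved in Lachit. OS12G0555100 fell from 55.8, 46.3 and 104 CPM to 0.409, 0.271 and 0.457 in Lachit root, at 185-fold lower. Its reads in Lachit leaf numbered 10 in control and 26 under excess iron, 22 of them in 1 library, against the 606-fold rise of Hacha leaf. OS07G0142100 stood at 416, 1432 and 114 CPM in Lachit control leaf and at 6.81, 4.96 and 4.43 under excess iron, so that the control libraries differed widely among themselves but all lay above the treated ones. OS01G0556650 went from 7 reads in Lachit control root to 11.7, 11.6 and 27.5 CPM under excess iron, at 211-fold higher. In Lachit leaf it went from 24.4, 27.0 and 43.6 CPM to 133, 28.0 and 131, with overlap, at 3.37-fold higher. In Hacha leaf it was 2.155-fold lower, also with overlap. OS02G0218750 went from 22.2, 39.3 and 51.2 CPM to 0.754, 2.33 and 5.82 in Lachit root, without overlap, and still held 263 reads there where Hacha root held none. No test between the varieties is given for these 4 genes.

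A test of the difference itself, in a fit of all 23 libraries, called 3927 of 29243 genes (13.4%), with 1829 higher and 2098 lower in Hacha than in Lachit. The count was 2330 without Hacha excess-iron root replicate 1 and 2615 without replicate 2. With all 23 libraries, the variety difference was called for 43.96% of the Hacha genes that fell in leaf and rose in root. For the reverse class it was 29.24%. The other 1-organ classes ran from 11.78% (fell in root alone) to 28.62% (fell in leaf alone). The Hacha libraries that chose these classes also enter this test, so the shares are a description. Among the 3168 of the 3927 genes with a group mean of 10 CPM or more, OS10G0527601 on chromosome 10 had the highest value. In Hacha leaf it rose from 0.284, 0.0401 and 0.0537 CPM to 188, 52.4 and 18.5, and in Hacha root it went from 16.1, 13.6 and 9.90 to 31.1 and 53.0. In Lachit the rise was in root, from 0.117, 0.524 and 0.137 CPM to 34.3, 44.9 and 75.3, while leaf went from 0.305, 1.03 and 4.08 to 2.83, 5.01 and 1.84 with overlap. Its organ difference was 7.81 ± 1.44 in Hacha and -6.80 ± 1.24 in Lachit (SE), and the difference between them, 14.61 ± 1.91, had an adjusted p of 0.000273 by edgeR. OS10G0515900, described above for Hacha, also rose in Lachit leaf, but from 0.492 to 3.62 CPM in control to 4.73 to 12.8 CPM under excess iron. The difference between varieties had an adjusted p of 0.0168, which became 0.122 without Hacha control root replicate 3.

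The lowest values among those 3168 genes belonged to OS05G0215033 and OS04G0578600. OS05G0215033 on chromosome 5 was at 45.9, 76.0 and 77.8 CPM in Hacha control leaf and at 0.832, 2.56 and 0.438 under excess iron. In Lachit it had 11 reads in excess-iron leaf, 5 in control root and 0 in both other groups, so that the Lachit side of its difference (adjusted p 0.0167 by edgeR, 0.0707 without Lachit control root replicate 1) rests on few reads. OS04G0578600 fell in the leaves of both varieties, in Lachit from 108, 63.1 and 81.6 CPM to 0.484, 0 and 0.178. In root it had 11 reads in Lachit control and 0 under excess iron, opposite to its small rise in Hacha root, and the adjusted p of the difference was 0.00315 by edgeR.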

How the data were processed

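Libraries were made from total RNA with the TruSeq RNA kit v2, which does not mark strand. The authors' estimated counts come from kallisto on the build IRGSP-1.0, per the submitters' processing notes; versions and settings were not given in any source used here. Reads matching several transcripts are shared out by that program, so near-identical copies are uncertain. Deposited TPM values, scaled by the authors to transcript length and a fixed total, served only as an alternative. Estimated counts of 42346 transcripts were summed to 35679 genes and rounded, which altered 22.39% of the gene values. Replicates differed by more than sampling noise (chi-square per gene 7.86 to 172).

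The main test was edgeR 4.0.16 (R 4.3.3), quasi-likelihood with robust dispersion, on the 11 Hacha libraries after filterByExpr and TMM scaling, with Benjamini-Hochberg adjustment over all 27680 genes and calls below 0.05. CPM are counts scaled by TMM. The varieties were compared in a fit of all 23 libraries, which also gave the CPM of Lachit. Lachit's own calls came from a fit of its 12 libraries, and organ preference from its 6 control libraries. Scripts were tested on simulated data. Standard errors of log2 fold changes were derived from the fitted value and its F statistic, and their 95% intervals from these. Both are unreliable where groups held few or no reads, also in the counts of intervals within a 2-fold change. Floors of 3 counts over a group, and 95% exact binomial intervals on ratios, cover counting error only.

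RefSeq's table for ASM3414082v1 matched 1 file identifier and gave it no symbol, so the 34 planned functional lists and the tissue markers stayed empty, and chromosomes are read from identifiers. Named genes are the 2 highest and 2 lowest organ differences among genes called for it, with a group mean of 10 CPM or more and no overlap in any called organ. Members, lists and tests were chosen with earlier results of these data known. The organ preference, shares of counts, abundance ranks, organ exchanges, low-CPM counts, chromosome shares, the root-alone genes and the genes of the variety comparison were chosen after values were seen. Alternatives were RLE factors, TMM within organs, library totals, no filter, DESeq2 1.42.0, limma 3.58.1 on log2(TPM + 1) and voom, a fit of all libraries, length offsets, separate organ fits, a minimum log2 fold change of 1, and each library left out.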

Additional observations from a re-analysis of the deposited data

Results flagged for a closer look

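Each gene described singly for Hacha was chosen among genes that passed the test of the organ difference (edgeR, adjusted p below 0.05). That pass is thus no separate result. The fitted log2 organ differences were 14.42 for OS12G0555100, 13.44 for OS10G0515900, 12.12 for OS02G0218750, -16.55 for OS04G0578600, -12.51 for OS07G0142100 and -9.38 for OS01G0556650. Where a group held no read (OS10G0515900, OS02G0218750 and OS04G0578600), the fitted size depends on the prior count and bounds nothing.

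The 4 genes named in the comparison of the varieties were likewise chosen among genes called for that difference. Hacha minus Lachit was 14.61 for OS10G0527601, 13.88 for OS10G0515900, -13.18 for OS05G0215033 and -12.92 for OS04G0578600, on the fitted log2 scale. Except for OS10G0527601, these values also involve groups with no read.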

How the results depend on the processing

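None of the named genes changed sign, and other genes were not checked for it. The counts stayed within 1.5 times of the reported ones except as listed next. Which of a pair of counts was larger did turn. Organ differences numbered 5740 higher and 6860 lower in leaf with no filter, and fewer were higher than lower without any 1 leaf library (5018 and 6283 without control leaf replicate 2). Responses in root outnumbered those in leaf in separate fits (17484 and 15158) and with voom (17497 and 16434). With library totals alone, genes falling in leaf and rising in root numbered 725 and those rising in root alone 597. With limma on log2(TPM + 1), responses higher in leaf numbered 10475, falling in leaf and rising in root 620, falling in root alone 4099, same direction and larger in root 1263, and root-preferring genes with a higher response in leaf 4792. With voom and a spread for each group, falling in root alone numbered 2505 and same direction, larger in leaf 2311. Testing against a minimum log2 fold change of 1 left 6723 organ differences (3457 higher and 3266 lower in leaf), 10049 leaf and 5826 root responses. With this minimum, 181 genes were up in leaf and down in root and 140 the reverse. Genes up in leaf alone numbered 1475 and those up in root alone 424. A further 142 and 122 moved in the same direction with the larger change in leaf and in root. Of the 1475 genes 1104 held that class in the main test, and of the 424 genes 246 did. The others were sorted differently there.

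Leaving out single libraries gave 9807 to 13615 organ differences. It gave 655 to 1070 genes up in leaf and down in root, 676 to 1510 the reverse, 402 to 1983 in the same direction and larger in leaf, and 2330 to 5616 differences between varieties. With a single excess-iron root library, its spread was taken from the other groups. Leaving out any leaf library moved the median leaf response from -0.03 to between -0.16 and -0.24. Calls lost for single genes are given beside them. No paired analysis was possible because the running numbers in the titles differ between all libraries, and no replicate number is shared between groups.

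The chief limits are the pair of excess-iron root libraries, the larger spread of leaf, and identifiers without names. Counts near 0 limit folds of single genes. Fold changes are relative to the typical gene, not to RNA per plant.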
